A study of Mus musculus with 9 samples.

Results

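Copy number along mouse chromosome 7 was described in 9 mammary tumours from mice with floxed Rb and p53 genes. Every array probe placed on chromosome 7 by the deposited files was used, apart from 18 spots in a short stretch near 39 Mb. This gave 54595 of the 963261 probed regions, of 914101 on the 19 autosomes. The members were chosen by the log2 ratios of these same tumours: the low level of the chromosome, stepped gains in one transplant and short low stretches. The level, the gains and the stretches are therefore given as descriptions, with no test against the pool. Tests were run on differences between the labelled groups and on the relation with a run on chromosome 11, neither of which the choice used. The label of a loss held for the whole chromosome in part. All 9 tumours lay below the autosomal median, but only 2 of 9 reached a chromosome level of -0.25, the threshold used here for a loss, and 1 tumour was low over the proximal part alone.

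The tumours came from mice of mixed background with floxed Rb and p53 genes, which Cre recombinase removes. The 2 Ad-Cre tumours, labelled as transplants, received Cre from an adenovirus with the CMV promoter. The 7 MMTV-Cre tumours carried Cre under the MMTV promoter, which drives expression in the mammary epithelium and in some other tissues. They were 5 tumours labelled as transplants, 1 from a nulliparous and 1 from a parous mouse. Tumour DNA (red, Cy5) was hybridised with pooled tail DNA of mice without tumours (green, Cy3), 1 array per tumour, with no dye swap and no array of control DNA against the pool. Whether transplants shared a donor is not stated, and the number of cells other than tumour cells was not measured.

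In array comparative genomic hybridisation, the ratio of tumour to reference signal at a probe follows the number of DNA copies. A copy lost or gained in every cell gives a larger ratio change than the same event in a part of the cells, and normal cells in the sample damp it. In bulk tumour DNA, fewer cells with a loss and a smaller loss in all cells cannot be told apart. Mouse chromosome 7 carries, among others, Ccnd1 (cyclin D1, whose kinase partners phosphorylate the Rb protein), Ccne1 (cyclin E1, which drives entry into S phase), Bax (a p53 target that promotes apoptosis), the growth factor receptor genes Igf1r and Fgfr2, the small GTPase gene Hras, and the imprinted genes Igf2, H19 and Cdkn1c. The reference gene table placed all 20 of the 20 genes listed for this chromosome on it. The files name no genome build and pair no probe with a gene, so no position below is assigned to a gene.

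The first chromosome 7 probe began at 3129114 and the last ended at 152523038, in the positions of the files, with a median spacing of 1686 bp. The largest gap between probes ran from 39081675 to 46519383. The median signal of chromosome 7 probes was 913 to 1115 in the tumour channel and 1090 to 1170 in the pool channel, and over autosomal probes the median signal was 15.2 to 17.9 and 21.8 to 32.5 times the local background. The noise of single probes was 0.158 to 0.180 on the log2 scale. On chromosome 11, the chromosome of Trp53, a run of 4 probes that was low in the other tumours kept 97.8% of the flanking signal in the library labelled as MMTV-Cre transplant 2, against 30.7% to 59.8% in the other 8. That library is named by its label throughout, and the means over all tumours in which it is far from the rest are also given without it.

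Every tumour had less chromosome 7 signal than the autosomal median of its array. The median log2 ratio of tumour to pool over the chromosome was -0.36 in Ad-Cre transplant 1 and -0.05 in Ad-Cre transplant 2. MMTV-Cre transplants 1, 3, 4 and 5 had -0.20, -0.07, -0.04 and -0.12, while the library labelled as MMTV-Cre transplant 2 had -0.07. The level was -0.16 in the nulliparous and -0.28 in the parous MMTV-Cre tumour. The mean was -0.15 ± 0.11 (SD, n = 9), and without the library labelled as MMTV-Cre transplant 2 it was -0.16 ± 0.11 (SD, n = 8). Ad-Cre transplant 1, the parous tumour and MMTV-Cre transplant 1 were thus the lowest, while MMTV-Cre transplants 3 and 4, that library and Ad-Cre transplant 2 lay close to 0. As a share of the pool, the signal was 78.1% for Ad-Cre transplant 1, 82.3% for the parous tumour and 97.1% for MMTV-Cre transplant 4.

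Among the 19 autosomes chromosome 7 was the lowest in 1 tumour, MMTV-Cre transplant 1, and among the 3 lowest in 5 of 9. It ranked 8 and 9 from the lowest in MMTV-Cre transplants 3 and 4. Chromosome 2, given for comparison, averaged -0.14 ± 0.14 (SD, n = 9), with a different order of tumours. It was at -0.39 in MMTV-Cre transplant 3, where chromosome 7 was at -0.07, and at -0.02 in the parous tumour, where chromosome 7 was at -0.28. Both were at -0.36 in Ad-Cre transplant 1.

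**Figure D1:**
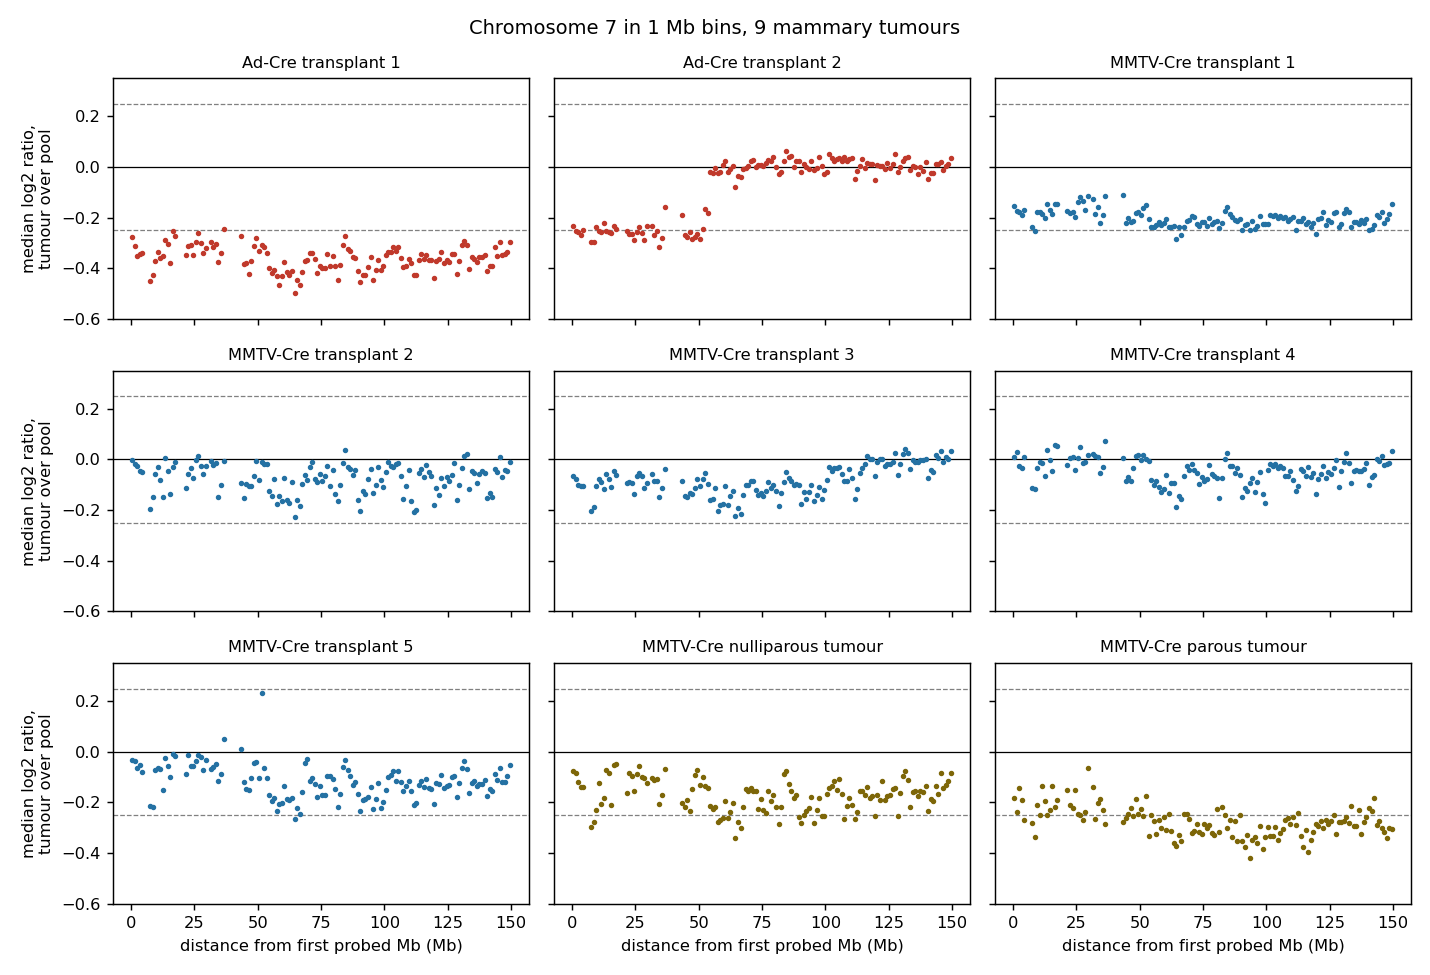
Median log2 ratio of tumour over pool in 1 Mb bins (y axis) against the distance in Mb from the first probed Mb of chromosome 7 (x axis), 1 panel per tumour. Red marks Ad-Cre transplants, blue MMTV-Cre transplants and brown the other MMTV-Cre tumours. Dashed lines mark 0.25 and -0.25. Ad-Cre transplant 1 is low along the whole chromosome, with bins between -0.50 and -0.25, and Ad-Cre transplant 2 is low over the first part alone.

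The length of chromosome 7 called lost ranged from none to nearly all of it. Loss was called in windows of 100 kb whose segment mean was -0.25 or less, and 1286 windows of chromosome 7 were counted. In Ad-Cre transplant 1, 99.9% of them were lost, against 28.5% of windows of all autosomes. In Ad-Cre transplant 2, 21.8% were lost, against 1.97% of all. In the parous tumour 71.9% were lost, against 15.8% of all, and in the nulliparous tumour 22.9%, against 9.14%.

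No chromosome 7 window was called lost in MMTV-Cre transplants 1, 3 and 5, where the shares over all autosomes were 1.3%, 11.8% and 0.206%. The share was 0.389% in the library labelled as MMTV-Cre transplant 2 and 0.156% in MMTV-Cre transplant 4, against 1.17% and 1.19% of all windows. Since the chromosome was chosen for this level, nothing is read from these shares. The mean over tumours was 24.1% ± 36.9 (SD, n = 9), and it was 14.6% without Ad-Cre transplant 1.

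The threshold set much of this picture in tumours with a shallow shift. At 0.15 in place of 0.25, 99.8% of the windows of MMTV-Cre transplant 1 counted as lost, 38.1% of those of MMTV-Cre transplant 5, 73.2% in the nulliparous and 100% in the parous tumour. At 0.4 the share was 18.7% in Ad-Cre transplant 1 and at most 0.389% in the other 8 tumours. The mean share was 51.9% at 0.15 and 2.14% at 0.4.

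Gains of chromosome 7 covered few windows in any tumour. The share called gained was 0.0778% in Ad-Cre transplant 1, against 8.47% of all autosomal windows, and 0.70% in Ad-Cre transplant 2, against 0.647%. MMTV-Cre transplants 1, 3 and 4 had 0.233%, 0% and 0.233%, against 3.61%, 7.49% and 12.9% of all. In the library labelled as MMTV-Cre transplant 2 it was 0.389%, where 20.6% of all windows were gained. The nulliparous tumour had 0.156%, against 8.31%, and the parous tumour 0%, against 5.26%. MMTV-Cre transplant 5, whose gains are described further on, had 1.48%, against 2.03%.

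In the tumours with losses, the longest lost segments spanned large parts of the chromosome. Ad-Cre transplant 1 had segments from 12259706 to 56903884 at a mean of -0.32, from 70555307 to 85864555 at -0.38 and from 111702393 to 133339211 at -0.39. In the parous tumour they ran from 55985040 to 91086961 at -0.31, from 91088978 to 109736199 at -0.36 and from 120900486 to 142911087 at -0.30. The means of these segments lay between -0.39 and -0.30. In the nulliparous tumour the longest ran from 57371269 to 70382178 and from 92046948 to 103173401, both at -0.27, and from 109682597 to 115809019 at -0.25, which is just past the threshold. Segments with nearly the bounds of the first pair were also found in tumours at other levels. They were at -0.43 and -0.41 in Ad-Cre transplant 1 and both at -0.13, not called, in MMTV-Cre transplant 4. These dips were therefore not particular to the nulliparous tumour.

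Ad-Cre transplant 2 had one large step. Its segments from 3129114 to 11825347 and from 17258924 to 54857980 had means of -0.26 and -0.27, and the segment from 56578563 to 110647436 had a mean of 0.01. The start of that segment was used to divide the chromosome into a proximal part of 13439 probes and a distal part of 41156 probes. This division was made after the values were seen. In Ad-Cre transplant 2 the proximal median was -0.26 and the distal one 0.01. In Ad-Cre transplant 1 they were -0.32 and -0.37, so that tumour was low on both sides of the place where the other stepped.

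Only 1 other tumour was lower in the proximal than in the distal part, MMTV-Cre transplant 3, at -0.09 and -0.06. Its last long segment, from 116774627 to 152518497, had a mean of -0.03, and its medians in the 10 Mb bins beyond 120 Mb lay between -0.01 and 0.01. The remaining 7 tumours were lower in the distal part, by 0.03 to 0.08. In the proximal part both Ad-Cre tumours lay below all 7 MMTV-Cre tumours, with means of -0.29 ± 0.04 (SD, n = 2) and -0.10 ± 0.08 (SD, n = 7). The higher Ad-Cre tumour was at -0.26 and the lowest MMTV-Cre tumour, the parous one, at -0.23. In the distal part the means were -0.18 ± 0.27 in Ad-Cre and -0.14 ± 0.09 in MMTV-Cre tumours, and the groups overlapped.

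Both Ad-Cre tumours were below all 7 MMTV-Cre tumours in 192 of the 334 proximal windows, or 57.5%, against 5.58% of the windows of all autosomes. The division rests on a step in one of these Ad-Cre tumours, so nothing is read from that count and no test is given for it.

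**Figure D2:**
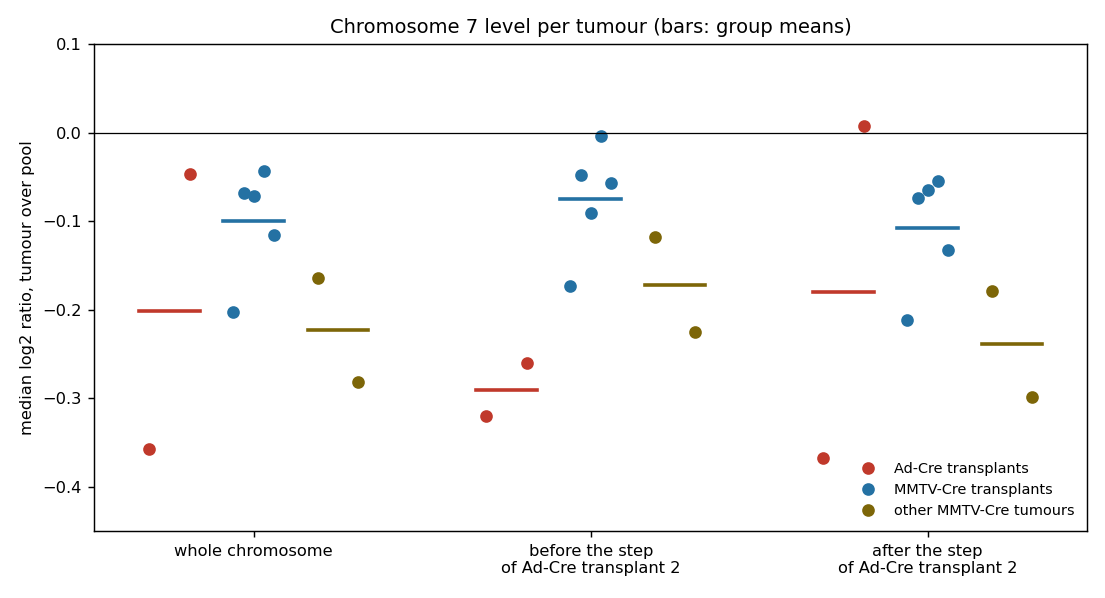
Median log2 ratio of tumour over pool (y axis) for the whole of chromosome 7 and for the parts before and after the step of Ad-Cre transplant 2 (x axis). Each point is a tumour, with Ad-Cre transplants in red, MMTV-Cre transplants in blue and the other MMTV-Cre tumours in brown, and bars are group means. Before the step both Ad-Cre points, at -0.32 and -0.26, lie below every MMTV-Cre point, and after it they lie at -0.37 and 0.01.

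The way Cre was delivered is the first comparison that the labels give. Ad-Cre tumours averaged -0.20 ± 0.22 (SD, n = 2) over the whole chromosome and MMTV-Cre tumours -0.14 ± 0.09 (SD, n = 7). The difference of -0.07 was within the spread between tumours (two-sided exact permutation p = 0.528, or 0.528 adjusted over the 2 group comparisons; smallest possible 0.0278). It was -0.10 among transplants alone (exact p = 0.333; smallest possible 0.0476). Without Ad-Cre transplant 1 it turned to 0.09, and without Ad-Cre transplant 2 it was -0.22. Within the scan day that held both kinds of tumour it was 0.02 (exact p = 1.0; smallest possible 0.333), but the MMTV-Cre tumours of that day were the nulliparous and the parous one.

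MMTV-Cre tumours labelled as transplants averaged -0.10 ± 0.06 (SD, n = 5) and the other MMTV-Cre tumours -0.22 ± 0.08 (SD, n = 2). The transplants were higher by 0.12, with the groups overlapping through MMTV-Cre transplant 1 at -0.20 and the nulliparous tumour at -0.16 (two-sided exact permutation p = 0.0952, or 0.19 adjusted over the 2 comparisons; smallest possible 0.0476). Without the parous tumour the difference was 0.06, and without MMTV-Cre transplant 1 it was 0.15. No scan day held both kinds, so scan day and group cannot be told apart in the chromosome level.

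Window by window, no part of chromosome 7 passed a test between groups. Between Ad-Cre and MMTV-Cre tumours, limma with Benjamini-Hochberg adjustment called 0 of 1286 chromosome 7 windows at an adjusted p under 0.05, against 0% of all 23354 autosomal windows. Without adjustment, 80 chromosome 7 windows (6.22%) had a p under 0.05, all lower in Ad-Cre, against 2.38% of all windows. The 80 windows all lay before 60 Mb, the last one starting at 54500001. The window with the lowest p began at 17200001, with a mean of -0.43 in Ad-Cre and -0.15 in MMTV-Cre tumours (limma adjusted p = 0.712). The median difference over chromosome 7 windows was -0.04, and it was 0.14 without Ad-Cre transplant 1 and -0.22 without Ad-Cre transplant 2. Those settings leave a single Ad-Cre tumour, so no counts are given for them. Without MMTV-Cre transplant 5 the windows with an unadjusted p under 0.05 numbered 17. That is 1.32% against 2.10% of all windows, so the share was then below that of all autosomes. Without MMTV-Cre transplant 4 they numbered 29 (2.26% against 1.95%), and without the library labelled as MMTV-Cre transplant 2 they numbered 50 (3.89% against 2.10%). Without the parous tumour there were 229 (17.8% against 2.89%).

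Between MMTV-Cre transplants and the other MMTV-Cre tumours, limma called 0 chromosome 7 windows, with 0.00428% of all windows called higher and 0% called lower. At an unadjusted p under 0.05, 99 chromosome 7 windows (7.70%) were found, all higher in transplants, against 5.16% of all windows. The lowest p belonged to the window at 12200001, with means of 0.52 in transplants and -0.21 in the rest, which is higher by 0.73 in transplants (limma adjusted p = 0.384). The next was the window at 111600001, with 0.42 and -0.11 (limma adjusted p = 0.788). Without the library labelled as MMTV-Cre transplant 2, limma called 1 chromosome 7 window, at 111400001, higher in transplants by 1.21 (adjusted p = 0.00504), among 30 called of 23354 windows. That window held 4 probes and was named after its value was seen. With that library included, it was higher in transplants by 0.92 (limma adjusted p = 0.788). The count of 99 was 162 without MMTV-Cre transplant 1 (12.6% against 5.69% of all windows). It was 44 without MMTV-Cre transplant 4 (3.42% against 3.97%) and 41 without MMTV-Cre transplant 5 (3.19% against 3.59%). In these last settings, and without the library labelled as MMTV-Cre transplant 2 (5.60% against 5.95%), the share on chromosome 7 was not above that of all windows. The median difference over chromosome 7 windows was 0.12, and it was 0.17 without the nulliparous and 0.07 without the parous tumour. Those settings leave a single tumour beside the transplants, so no counts are given for them.

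MMTV-Cre transplant 5 carried stepped gains, the 11 chromosome 7 segments with a mean of 0.25 or more. They numbered 18 with no filter on dim or flagged spots and 7 with penalty factor 20. Its chromosome level was -0.12, so the gains stood on a chromosome that was otherwise a little low. The segment from 6785641 to 6903754, 118 kb with 70 probes, had a mean log2 ratio of 1.70, a ratio of 3.25, while the other 8 tumours lay between -0.34 and -0.06. The segment from 25603462 to 25744590, 141 kb with 85 probes, had a mean of 1.74, a ratio of 3.35, and the other 8 lay between -0.29 and 0.04. Both gains were therefore called in 1 tumour and in no other.

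In both gains the difference lay in the tumour channel. Relative to the autosomal median of the channel, the tumour signal was 2.93 at the first in MMTV-Cre transplant 5 and 0.740 to 0.862 in the other 8, while the pool signal was 0.862 to 0.945 on the 9 arrays. At the second, the tumour signal was 4.08, against 1.06 to 1.27 in the other 8, with a pool signal of 1.22 to 1.30. The segments on either side were at -0.07 and -0.17 for the first and -0.06 and -0.07 for the second.

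Near the end of the proximal part the gains changed in several steps. The segment from 54163835 to 54318395 had a mean of 0.30, that from 54319721 to 54374597 had 0.88 and that from 54376304 to 54789898 had 0.42. The other 8 tumours lay at -0.33 to 0.00, -0.39 to -0.05 and -0.25 to 0.00 in these 3 segments, so only MMTV-Cre transplant 5 was above 0.25. Further on, the segments from 54810950 to 54984456 and from 55530363 to 55664873 had means of 1.61 and 1.53, with 0.14 between them. These last were not particular to the tumour, since 7 of the other 8 tumours were also at 0.25 or more there, at 0.57 to 1.38 and at 0.39 to 1.18, and the parous tumour was at -0.09 and -0.17. With the normexp background correction the second was at 0.50 in MMTV-Cre transplant 5. The short low stretch from 54845179 to 54857980, described further on, lies inside the segment from 54810950 to 54984456. That segment was therefore not high at every probe.

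A further pair lay near 72 Mb. The segment from 71797725 to 72032928, with 145 probes, had a mean of 0.69, and that from 72114904 to 72364136, with 140 probes, had 0.26. The 79.9 kb between them was at -0.14, close to the tumour's chromosome level, so the gain was broken by a stretch without one. The other 8 tumours lay between -0.39 and -0.02 in the first and between -0.38 and -0.01 in the second. The 2 remaining gained segments, from 12223065 to 12256121 at 1.44 and from 111635791 to 111697957 at 1.26, were gained in other transplants as well and are described with the stretches that were dim in the pool.

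**Figure D3:**
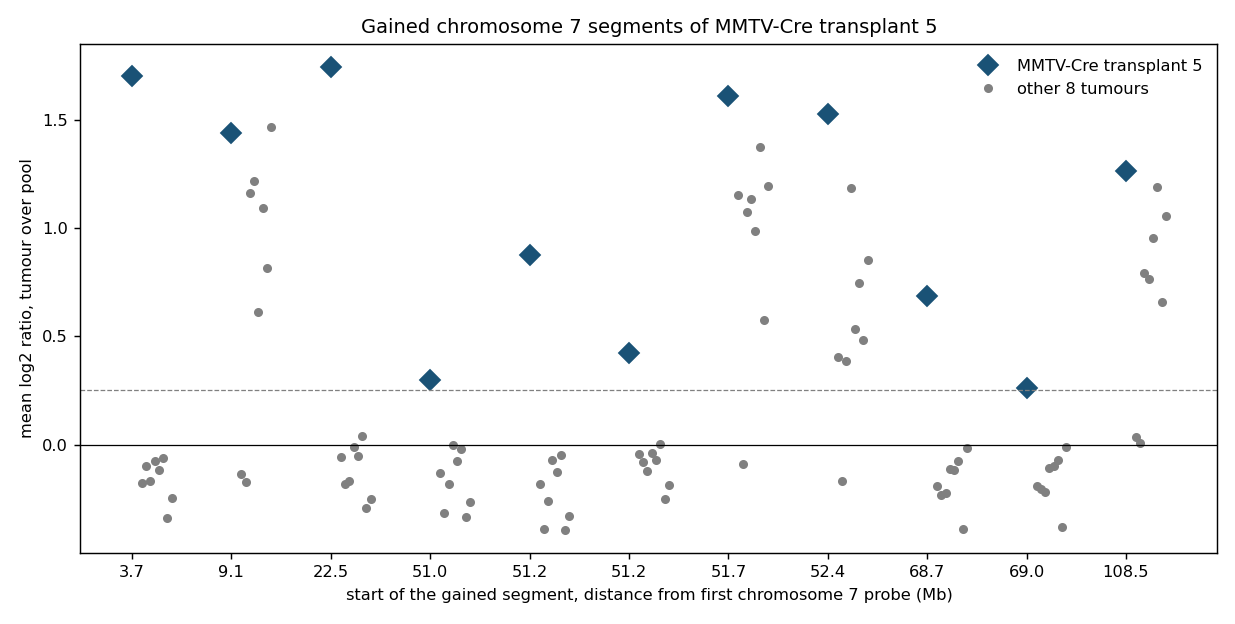
Mean log2 ratio of tumour over pool (y axis) in each of the 11 gained chromosome 7 segments of MMTV-Cre transplant 5, placed in order by their distance in Mb from the first chromosome 7 probe (x axis, not to scale). The diamond is MMTV-Cre transplant 5, the grey points are the other 8 tumours and the dashed line marks 0.25. In 7 segments the diamond alone is above the line, and in the other 4 most tumours are above it too.

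The first of the short low stretches was deep in 2 tumours. It ran from 26790284 to 26981899, 192 kb with 20 probes, bounded as neighbouring probes whose lowest tumour was at -0.9 or less, a limit set after the values were seen. Its mean log2 ratio was -2.09 in the library labelled as MMTV-Cre transplant 2 and -1.40 in MMTV-Cre transplant 4. Ad-Cre transplants 1 and 2 had -0.38 and -0.29, and the mean was -0.21, -0.13 and -0.33 in MMTV-Cre transplants 1, 3 and 5, -0.16 in the nulliparous and -0.11 in the parous tumour. The low tumours were thus separated from the lowest of the others by more than 1 on the log2 scale. The mean over tumours was -0.57 ± 0.70 (SD, n = 9), and without that library it was -0.38 ± 0.43 (SD, n = 8).

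The drop in this first stretch was in the tumour channel. Relative to its autosomal median, the tumour signal was 0.241 in the library labelled as MMTV-Cre transplant 2 and 0.342 in MMTV-Cre transplant 4, against 0.708 to 0.911 in the other 7 tumours. The pool signal was 0.811 to 0.876 on all 9 arrays. Against 20 flanking probes on each side the stretch was lower by 1.99 and 1.37 on the log2 scale in those tumours, and the difference was between -0.29 and -0.01 in the other 7. Inside it, the 5 probes from 26896215 to 26972372 had a mean of -0.64 over tumours and were below 0 in 9 of 9. Without the library labelled as MMTV-Cre transplant 2 their mean was -0.46 ± 0.41 (SD, n = 8), no longer past -0.5.

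The stretch farthest along the chromosome was low in every tumour. It ran from 67577748 to 67734177, 156 kb with 10 probes. Its mean was -0.94 and -0.71 in Ad-Cre transplants 1 and 2, -0.63, -0.58, -0.53 and -0.82 in MMTV-Cre transplants 1, 3, 4 and 5, and -1.25 in the library labelled as MMTV-Cre transplant 2. It was -0.42 in the nulliparous and -0.48 in the parous tumour, the 2 highest values. The mean was -0.71 ± 0.26 (SD, n = 9), and -0.64 ± 0.18 (SD, n = 8) without that library. The 9 probes from 67580848 to 67734177 formed the second run with a mean past -0.5, at -0.73, and 1 sign in 9 of 9 tumours. Without that library its mean was -0.66.

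Part of this depth belonged to the surroundings. Against the flanking probes the stretch was lower by 0.98 in the library labelled as MMTV-Cre transplant 2 and by 0.33 to 0.63 in the other 6 transplants, while the differences were -0.08 in the nulliparous and -0.10 in the parous tumour. The median pool signal over the probes was bright there, at 1.75 to 1.89 times the autosomal median, and the tumour signal ran from 0.703 in that library to 1.47 in the parous tumour.

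The stretch between these rested on 2 probes, from 54845179 to 54857980. Its mean was -0.97 and -1.40 in Ad-Cre transplants 1 and 2, -0.68, -0.54, -0.53 and -1.45 in MMTV-Cre transplants 1, 3, 4 and 5, and -1.43 in the library labelled as MMTV-Cre transplant 2. It was -1.06 in the nulliparous and -0.18 in the parous tumour, which stood highest. The mean was -0.92 ± 0.46 (SD, n = 9), and -0.85 ± 0.45 (SD, n = 8) without that library. The channels of the 2 probes differed. At 54845179 the tumour signal was 0.489 to 0.925 times its autosomal median in 8 tumours and 1.11 in the parous tumour, next to a pool signal of 1.18 to 1.30. At 54857928 both channels were bright, with a tumour signal of 2.02 to 5.49 in those 8 tumours and 7.23 in the parous tumour, next to a pool signal of 7.78 to 8.38. The ratio was thus low at a probe near the autosomal level and at one far above it.

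**Figure D4:**
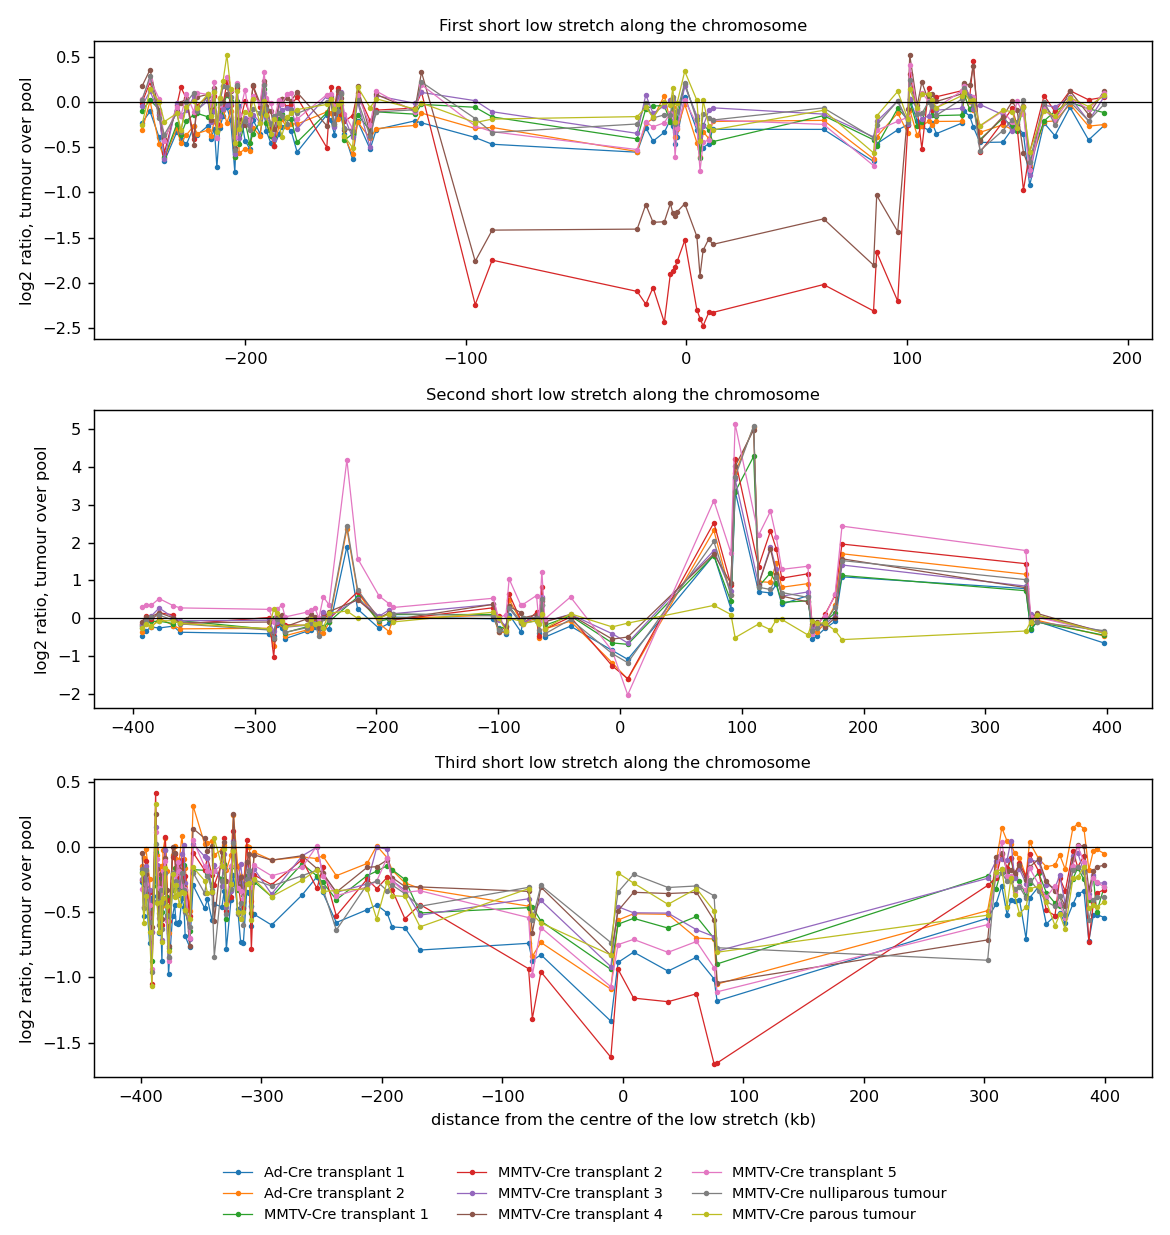
Log2 ratio of tumour over pool of single probes (y axis) against the distance in kb from the centre of the short low stretch (x axis), for the 3 stretches in their order along the chromosome from top to bottom, with 1 coloured line per tumour. In the top panel 2 tumours, MMTV-Cre transplant 4 and the library labelled as MMTV-Cre transplant 2, drop to means of -1.40 and -2.09. In the middle panel 8 tumours are high beside the low probes and the parous tumour is not, and in the bottom panel the stretch means lie between -1.25 and -0.42.

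Beside the 2 low probes of that stretch lay a stretch with high ratios, from 54928637 to 55009532 with 12 probes, of which 9 or 10 had a value in each tumour. The mean was 0.88 and 1.66 in Ad-Cre transplants 1 and 2, 1.33, 1.25, 1.64 and 2.15 in MMTV-Cre transplants 1, 3, 4 and 5, and 1.68 in the library labelled as MMTV-Cre transplant 2. It was 1.50 in the nulliparous tumour and -0.13 in the parous tumour. Over the 9 probes with a value on all arrays, an average chosen after the values were seen, the means were 0.88 to 2.15 in 8 tumours and -0.13 in the parous tumour. With normexp they were 0.33 to 1.63 and -0.16. The pool signal was dim, at 0.192 to 0.309 of the autosomal median. The tumour signal was 0.644 to 1.40 in the 8 high tumours, and 0.301 in the parous tumour, next to a pool signal of 0.309 on the same array. The parous tumour was thus the one tumour whose DNA gave as little signal there as the pool, and it was also the one in which the 2 neighbouring low probes were near the level of the chromosome.

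In 2 further stretches dim in the pool, all 7 tumours labelled as transplants differed from both of the others. From 12223065 to 12256121, with 11 probes of which 8 to 10 had a value in each tumour, the mean was 0.81 and 1.47 in Ad-Cre transplants 1 and 2, 1.16, 0.61, 1.09 and 1.44 in MMTV-Cre transplants 1, 3, 4 and 5, and 1.22 in the library labelled as MMTV-Cre transplant 2. It was -0.14 in the nulliparous and -0.17 in the parous tumour. Over the 8 probes with a value on all arrays, the means were 0.48 to 0.87 in transplants and -0.15 in each of the others. With normexp the high ratios were gone, at -0.16 to 0.12 in transplants (0.03 in MMTV-Cre transplant 5) and -0.33 and -0.26 in the others, so no tumour reached 0.25. The tumour signal was 0.305 to 0.494 in transplants, 0.183 in the nulliparous and 0.193 in the parous tumour, and the pool signal was 0.160 to 0.239. The transplants therefore lay above the others at a signal that was low in every channel. How many autosomal windows separate the same tumours was not counted, so nothing is read from the separation in either stretch.

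From 111635791 to 111696818, with 12 probes of which 9 or 10 had a value in each tumour, the mean was 0.73 and 1.13 in Ad-Cre transplants 1 and 2, 0.87, 1.04, 1.29 and 1.38 in MMTV-Cre transplants 1, 3, 4 and 5, and 0.83 in the library labelled as MMTV-Cre transplant 2. It was 0.04 in the nulliparous and 0.01 in the parous tumour. Over the 9 probes with a value on all arrays, the means were 0.63 to 1.38 in transplants. With normexp they were -0.07 to 0.49 in transplants, against -0.23 and -0.18 in the other tumours. The tumour signal was 0.326 to 0.724 in transplants and 0.183 and 0.184 in those other tumours, with a pool signal of 0.120 to 0.190. These stretches were picked after their values were seen, and no test is given for them. The windows that hold them, at 12200001 and 111600001, did not pass in limma. Both passed with no filter on dim or flagged spots (limma adjusted p = 0.00351 and 0.0162). That setting brings back spots dim in the pool, at places chosen by their values, so nothing is read from it. Whether differences in strain background between mice move with these stretches was not tested.

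**Figure D5:**
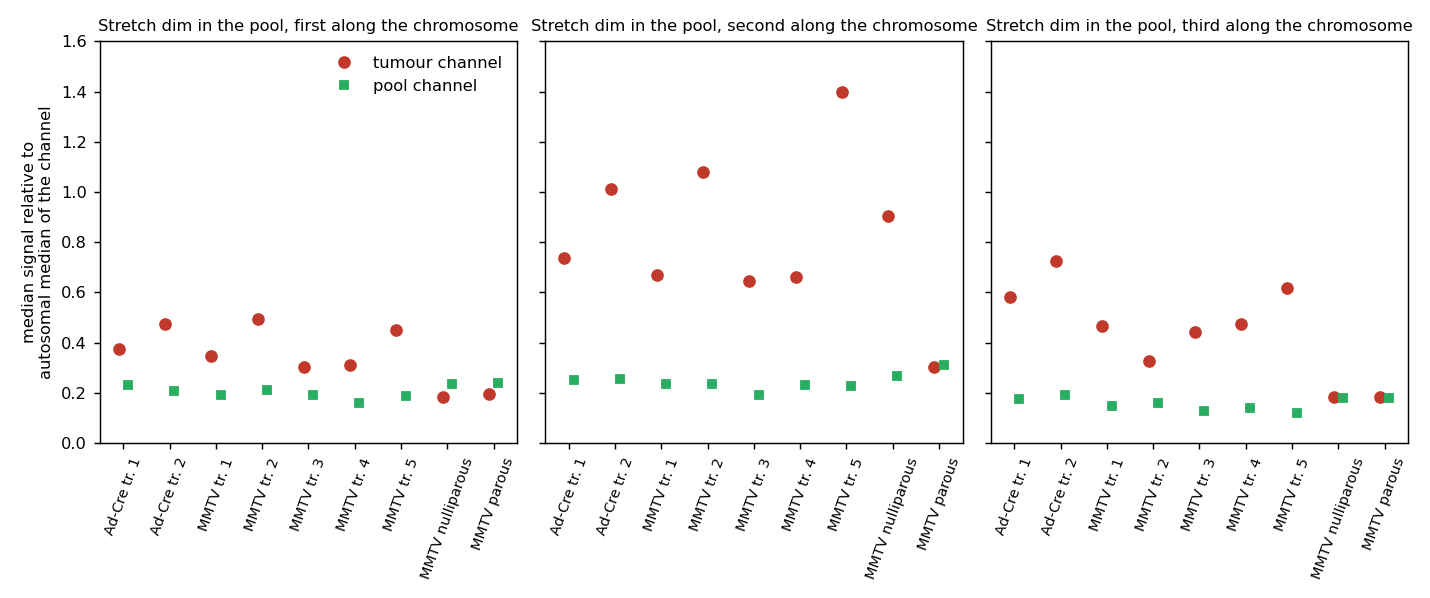
Median signal of the tumour channel (red circles) and of the pool channel (green squares), each relative to the autosomal median of its channel (y axis), in 9 arrays (x axis; tr. stands for transplant) for 3 stretches of chromosome 7 with little pool signal. From left to right they start at 12223065, 54928637 and 111635791. Circles lie above squares in all 7 transplants in each panel. In the parous tumour they lie close to the squares in each panel, and in the nulliparous tumour in the left and right panels.

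The profiles along the chromosome were alike in most tumours by Pearson's r, but less so in the parous tumour and not in Ad-Cre transplant 2. Over 138 bins of 1 Mb, Pearson's r between tumours was 0.001 to 0.94 in the 28 pairs without Ad-Cre transplant 2, with a median of 0.71. It was 0.001 to 0.46 in the 7 of these pairs with the parous tumour and 0.41 to 0.94 in the other 21. In the pairs with Ad-Cre transplant 2 it was -0.61 to 0.27. The large step of Ad-Cre transplant 2 enters r, so r does not show whether its small ups and downs differed. Likeness on each side of the step was not computed. After the step its 1 Mb median was -0.08 at 67 Mb and 0.06 at 87 Mb, against -0.50 and -0.27 in Ad-Cre transplant 1. The bins share the pool, the probes and the dye orientation, and these values are a description without a test. By 10 Mb bins the lowest mean over tumours was -0.21 from 60 to 70 Mb, followed by -0.19 from 40 to 50 Mb and from 90 to 100 Mb. The lowest bin was at -0.43 in Ad-Cre transplant 1 and at -0.01 in Ad-Cre transplant 2. The SD of the 1 Mb medians was 0.122 in Ad-Cre transplant 2, which has the large step, and 0.033 in MMTV-Cre transplant 1, the flattest tumour.

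The signal left in the low run on chromosome 11 was set against the chromosome 7 level. The run, from 69397121 to 69402566, was below its flanks by 1.52 and 0.74 on the log2 scale in Ad-Cre transplants 1 and 2, by 0.03 in the library labelled as MMTV-Cre transplant 2 and by 0.99 to 1.70 in the other 6 tumours. Pearson's r between this difference and the chromosome 7 level was 0.57 (exact permutation p = 0.106) and Spearman's rho was 0.65 (exact permutation p = 0.0666) over 9 tumours, so the relation did not pass. Pearson's r was 0.49 without the library labelled as MMTV-Cre transplant 2 and Ad-Cre transplant 2, the pair farthest from the median of the run. This was the single relation computed across tumours. No scan day held more than 4 tumours, too few for a value within days.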

How the data were processed

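Tumour and pooled tail DNA were hybridised on Agilent tiling arrays of design 027414 and read with Feature Extraction 10.5.1.1, per the file headers. The deposited processed signals are intensity values after the authors' background subtraction and dye normalisation. The deposited series table holds the authors' log10 ratios of red over green. The genome build is not given in the sources used here, and no sequence was read.

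From the processed signals the log2 ratio of tumour to pool was computed per probe, spots of one region were averaged, and the autosomal median of the array was subtracted. Spots dim in the pool channel and flagged spots were left out, which left 54503 chromosome 7 probes with a value on every array, 92 without one on some arrays and 44 of these on none. Probes in bins of 5 were segmented by penalised least squares (penalty factor 10, at least 2 bins), and segments of 0.25 or more, or of -0.25 or less, were called. Windows of 100 kb with at least 3 probes were tested on all autosomes with limma 3.58.1 (R 4.3.3) and Benjamini-Hochberg adjustment. Chromosome levels were compared by exact permutation in Python 3.11.15 (numpy 2.4.6, scipy 1.17.1). Segmentation and window tests were tested on simulated data.

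Named regions were the 3 short low stretches, all gained segments of MMTV-Cre transplant 5, up to 3 longest called segments of at least 1 Mb per sign in each other tumour, and runs of at least 4 neighbouring probes, each with a mean past 0.5 in size and 1 sign in 9 of 9 tumours. Other segments and windows were named after their values were seen. Members, regions and gene list were chosen with earlier results of these data known. The tests treated the tumours as independent, though whether transplants shared a donor is not stated. The p-values rest on the spread between these tumours, 1 array each. Replicate numbers follow the order of deposit. The number of arrays limits the precision. Alternatives were a normexp correction (offset 50), within-array loess, the mode for centring, the deposited table, other filters, penalties, thresholds and windows, scan day, subsets and leaving out each tumour.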

Additional observations from a re-analysis of the deposited data

Results flagged for a closer look

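Among the 5 MMTV-Cre transplants, 1 tumour stood far from the other 4 in 5 of the 19 quantities examined, in each case MMTV-Cre transplant 5 at one of its gains. Its mean log2 ratio was 1.70 from 6785641 to 6903754 and 1.74 from 25603462 to 25744590. It was 0.88 from 54319721 to 54374597, 0.42 from 54376304 to 54789898 and 0.69 from 71797725 to 72032928. In each interval its distance to the nearest transplant was a larger part of the group's range than the limit of Dixon's test. Chance alone flags about 1 in 20 groups, a rate that does not hold for intervals picked by their values. These intervals were chosen because this tumour was gained in them, so the flags restate that choice.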

How the results depend on the processing

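The mean chromosome 7 level was below 0 under every alternative run, from -0.18 with centring on the mode to -0.15 with loess, and from -0.16 to -0.12 with each tumour left out. Centring on the mode lowered Ad-Cre transplant 1 by 0.14, to -0.49. The mean share of windows lost was 14.6% to 27.1% with each tumour left out, and the low stretches had means of -0.62 to -0.38 in the first, -1.01 to -0.85 in the second and -0.74 to -0.64 in the third along the chromosome. In the tumour channel alone the second turned to 0.75 and the third was at -0.24. The gained segments of MMTV-Cre transplant 5 numbered 11, against 18 with no filter on dim or flagged spots and 7 with penalty factor 20. With normexp, its gains were 2.31 and 2.37 at 6785641 and 25603462, and 0.03 at 12223065, where the pool was dim. Over probes with a value on all 9 arrays, chosen after seeing the data, the gain at 12223065 was 0.83 and that at 55530363 was 0.95. The Ad-Cre minus MMTV-Cre level turned to 0.0209 within a scan day and to 0.0879 without Ad-Cre transplant 1, ranged from -0.22 to 0.09 with each tumour left out and was -0.14 with centring on the mode. For MMTV-Cre transplants minus the other MMTV-Cre tumours it ranged from 0.06 to 0.18. In limma, 3 chromosome 7 windows were called between those groups with no filter, at 12200001, 82900001 and 111600001, of 28 called among 23357 windows. With each MMTV-Cre transplant left out, 0 to 1 were called, of 0 to 30 called on all autosomes. With scan day as a random block, 0 were called in either comparison. Between Ad-Cre and MMTV-Cre tumours, windows with an unadjusted p under 0.05 numbered 271 with centring on the mode (21.1%, against 5.73% of all windows) and 192 with that block (14.9% against 2.71%). Between transplants and the others they numbered 33 with normexp (2.57% against 3.66%) and 283 with that block (22.0% against 11.1%). The estimated correlation within scan days was negative in these blocked fits, at -0.096 and -0.204, so nothing is read from their higher counts. The correlation with the chromosome 11 run was 0.51 to 0.66 with each tumour left out. The causes of these changes were not tested. No paired analysis was possible because the replicate numbers are those of deposition and tie no tumours to each other. Dim pool signal limits the ratios at 12223065, 54928637 and 111635791.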

Other observations

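Short low segments outside those described were found in single tumours. The library labelled as MMTV-Cre transplant 2 had a mean log2 ratio of -1.96 from 66354770 to 66390188, with 10 probes, where the other 8 tumours lay between -0.32 and 0.05. From 73459398 to 73475474, with 11 probes, it was at -2.26, where the other 8 lay between -0.40 and 0.08. There the median tumour signal was 0.357 of its autosomal median in that library and 0.771 to 1.02 in the other 8, with a pool signal of 0.932 to 1.05.

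From 17227372 to 17257236, with 15 probes, the mean was -0.67 and -0.95 in Ad-Cre transplants 1 and 2, -0.26 to -0.55 in the 5 MMTV-Cre transplants and -0.06 in both other MMTV-Cre tumours. The pool was bright there, at 2.92 to 3.18 times its autosomal median, and the tumour signal was 1.38 to 2.91 times its own. Ad-Cre transplant 2 had a gained segment from 110649227 to 111069381, with 220 probes, at 0.28. The other 8 tumours lay there between -0.30 and 0.09. All of these segments were picked after their values were seen, and no test is given for them.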
